A study of Saccharomyces cerevisiae with 12 samples.

Results

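The small subunit of the cytosolic ribosome holds 1 ribosomal RNA and the proteins of the RPS genes, and it decodes the messenger RNA. In budding yeast, Saccharomyces cerevisiae, the ribosomal protein genes are among the most heavily transcribed in growing cells. Their promoters are bound by Rap1, Fhl1 and the coactivator Ifh1, and growth signals through the TOR and protein kinase A pathways set their output. Most of the proteins are encoded by a pair of copies, A and B, kept from an ancient genome duplication, and many of these genes carry an intron. All 56 genes whose standard name is RPS, a number and an optional A or B were taken, out of 7192 features in the table. They form 24 A and B pairs and 8 single genes, for 32 proteins, and all 56 passed the filter on low counts that left 6237 features.

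RNA came from 6 yeast samples treated with CSL, a lectin of the clam Cyclina sinensis, and from 6 control samples left untreated. Lectins are proteins that bind sugars, and the series title names N-acetylgalactosamine and mannose for this one. All 12 samples were wild-type cells in the rich medium YPD at mid-logarithmic phase. The labels give no lectin dose, incubation time or strain, and do not say whether controls received a buffer. Lectin samples carry the numbers 2, 3, 4, 5, 6 and 8, and control samples 2, 3, 4, 6, 7 and 8. Total counts were 17303313 to 21354011 in the lectin samples and 17380109 to 19753992 in the control samples. The labels call the samples biological replicates without naming separate cultures, so p-values measure the spread between these samples.

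RPS messenger RNA was slightly lower with the lectin. The RPS genes took up 3.04% ± 0.119 of all counts in lectin samples and 3.32% ± 0.0879 in control samples (SD, n = 6 each), a difference of -0.279 percentage points. Lectin samples ranged between 2.93% and 3.24% and control samples between 3.21% and 3.47%. The groups overlapped through lectin 5, the highest lectin sample, which stood above control 8, the lowest control sample. In bulk RNA, a change in the share of cells that express a gene and a change in RNA per cell cannot be told apart.

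By the DESeq2 Wald test with Benjamini-Hochberg adjustment over all 6237 features, 25 of the 56 RPS genes were lower with the lectin and 1 was higher at an adjusted p under 0.05. That is 46.4% of the RPS genes, against 31.5% of all features, and 44.6% lower, against 16.1% of all features called lower and 15.4% called higher. The median log2 fold change, lectin over control, was -0.12 over the RPS genes and 0.00 over all features. Of the RPS values 46 were negative and 10 positive. No RPS gene reached the size used by the study, 1 or more on the log2 scale in either direction. Few features did: 16 of all 6237 reached it with a DESeq2 adjusted p under 0.05. An unadjusted DESeq2 p under 0.05 was found for 30 of the 56 RPS genes and for 2544 of the 6237 features. Of the 25 lower genes, 18 changed by less than 0.25 on the log2 scale. edgeR's quasi-likelihood test called 21 RPS genes lower and 0 higher, and 1 gene was higher at an unadjusted edgeR p under 0.05. All 21 were among the 25, and the 5 genes called by DESeq2 alone included RPS1B, RPS6B and RPS14A.

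**Figure D1:**
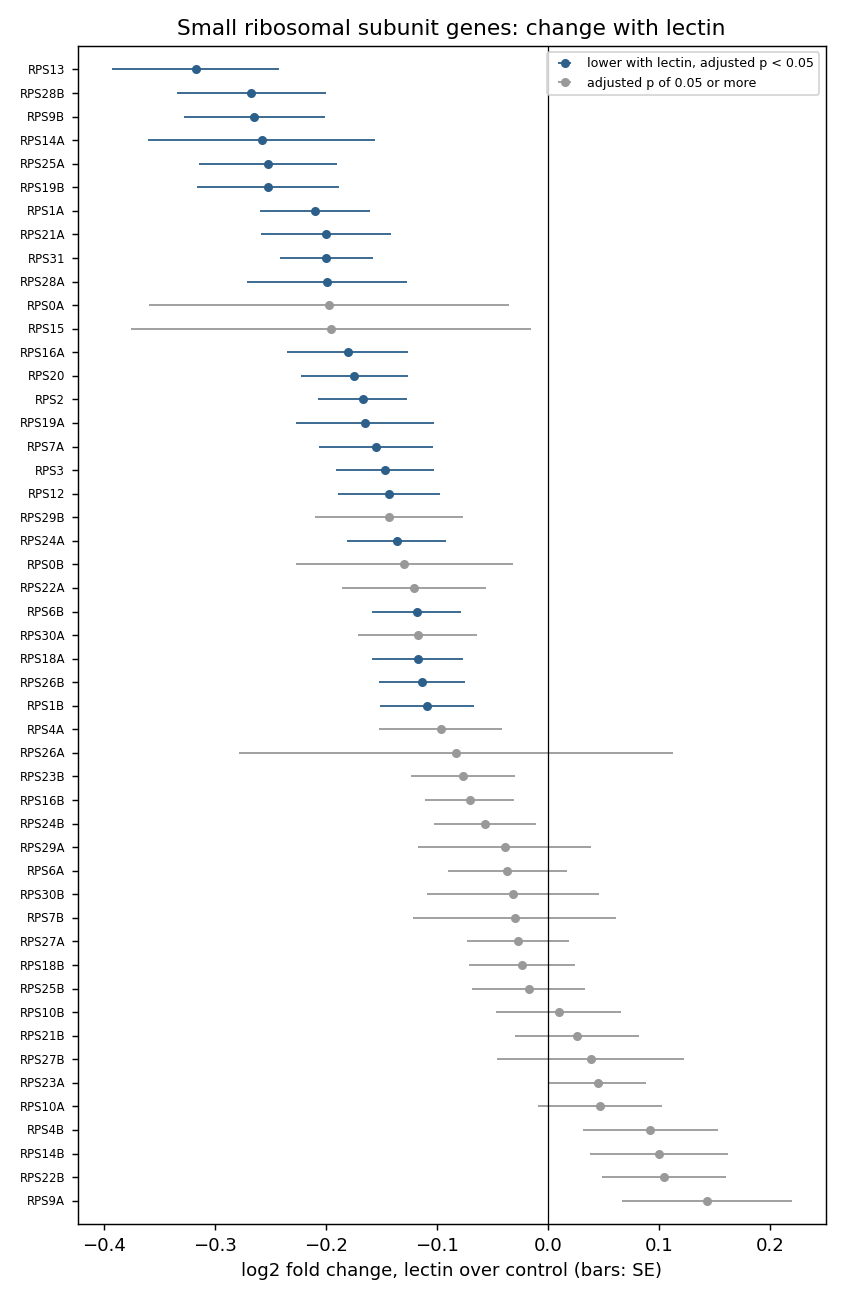
Log2 fold change, lectin over control, of 49 RPS genes (x axis), with bars for the standard error and genes ordered by value down the page. The values run between -0.32 for RPS13 and 0.14 for RPS9A, with 40 genes left of 0.

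For 5 of the 56 RPS genes, among them RPS1A, RPS2, RPS9B and RPS31, every lectin sample was below every control sample. Among all 6237 features 419, or 6.72%, showed such a separation downward, so the downward count of RPS genes was near that share. No RPS gene showed it upward, against 365 of all features. The groups overlapped for the other 20 lower genes, and for 17 of these lectin 5 was among the lectin samples inside the range of the controls. Without lectin 5, 34 RPS genes were called lower, and without control 3, 18. Calls over all features moved the same way, with 19.6% lower without lectin 5 and 14.3% without control 3, against 16.1% with all samples. Of the 26 calls, 18 held whichever of the 12 samples was left out. The 8 calls lost without at least 1 sample included RPS1B, RPS14A, RPS18A, RPS19A, RPS26B and RPS28A. In these DESeq2 fits RPS18A and RPS26B lost the call without control 3, at an adjusted p of 0.0548 and 0.0502. RPS28A lost it without lectin 2, 3 or 6 or control 2 or 3, at up to 0.0682, and RPS19A without any of these or control 6 or 7, at up to 0.0767. RPS1B lost it without lectin 2, 3, 4 or 6 or control 2, 3 or 4, at up to 0.0904.

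RPS31 encodes a fusion of ubiquitin to a protein of the head of the subunit, and the cut that frees the 2 parts supplies cells with ubiquitin. It lies at chrXII:498947-499405 on the plus strand of the R64 assembly, has no intron and had the highest level per length of the 56 genes. Its normalized counts were 36094, 38461, 38234, 37247, 41374 and 37270 in lectin samples 2, 3, 4, 5, 6 and 8. They were 41938, 47176, 44483, 42080, 43470 and 43504 in control samples 2, 3, 4, 6, 7 and 8. The groups did not overlap, and lectin 6 was closest to the controls. The log2 fold change was -0.20 (SE 0.0419), with a DESeq2 adjusted p of 2.33e-05. The other ubiquitin genes UBI4 and RPL40B were also lower, at -0.08 and -0.10, while RPL40A at -0.11 did not pass the test. edgeR called neither UBI4 nor RPL40B, with adjusted p of 0.139 and 0.0816.

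The other single genes with a call were RPS13, RPS20, RPS2, RPS3 and RPS12. RPS13, which encodes a core protein of the body and contains an intron, had the most negative fold change of all 56. Its normalized counts had a lowest value, median and highest value of 9625, 11869 and 14336 in lectin samples, against 13959, 14658 and 15897 in control samples. Lectin 5 alone reached the range of the controls, and the log2 fold change was -0.32 (SE 0.0755, DESeq2 adjusted p 2.36e-04). RPS2, whose protein lies at the channel where the messenger RNA enters, had 12044, 12741 and 13352 in lectin samples, against 13426, 14180 and 15225 in control samples. The groups did not overlap, and RPS2 changed by -0.17 (SE 0.0402, DESeq2 adjusted p 2.83e-04). RPS3, also at the entry channel, changed by -0.15, and RPS20, a head protein that receives ubiquitin on stalled ribosomes, by -0.17. RPS12, in the beak of the head, changed by -0.14. RPS15, a head protein, had a value of -0.20 with a standard error of 0.180 and did not pass the test.

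Of the genes with a second copy, those for head proteins are given first. RPS28B encodes a head protein near the messenger RNA exit, and its protein also limits its own messenger RNA. Its normalized counts had a lowest value, median and highest value of 2403, 2780 and 2929 in lectin samples, against 2914, 3274 and 3917 in control samples. Only lectin 8 reached the range of the controls, and RPS28B changed by -0.27 (SE 0.0675, DESeq2 adjusted p 5.82e-04). RPS25A, for a head protein used in internal initiation, had 10621, 11346 and 14065 in lectin samples, against 13510, 14026 and 14673 in control samples. Lectin 5 alone reached the controls, and RPS25A changed by -0.25 (SE 0.0622, DESeq2 adjusted p 4.03e-04). RPS19B, for the protein whose human counterpart is mutated in Diamond-Blackfan anaemia, had 6928, 7857 and 9308 in lectin samples, against 8826, 9674 and 9991 in control samples. Again lectin 5 alone overlapped, and RPS19B changed by -0.25 (SE 0.0640, DESeq2 adjusted p 6.20e-04). RPS28A, the other copy of RPS28B, changed by -0.20.

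Body and platform genes with a second copy followed. RPS9B, whose protein acts in decoding fidelity, had normalized counts of 7130, 8475 and 9847 as lowest value, median and highest value in lectin samples, against 9887, 10384 and 10536 in control samples. The groups did not overlap, although lectin 5 came close to the lowest control, and RPS9B changed by -0.26 (SE 0.0633, DESeq2 adjusted p 2.62e-04). RPS1A, a platform protein near the messenger RNA exit, had 17828, 19151 and 20311 in lectin samples, against 21147, 21316 and 24388 in control samples. The groups did not overlap, and RPS1A changed by -0.21 (SE 0.0498, DESeq2 adjusted p 2.22e-04). RPS21A had 4082, 4460 and 4991 in lectin samples, against 4812, 5190 and 5519 in control samples. Lectin 5 and 8 overlapped the controls, and RPS21A changed by -0.20 (SE 0.0588, DESeq2 adjusted p 0.00375).

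RPS14A, for a platform protein, was called with less margin. Its normalized counts were 8762, 12388 and 15423 as lowest value, median and highest value in lectin samples, against 12279, 14552 and 16180 in control samples. Of the 6 lectin samples, 4 lay inside the range of the controls, and the log2 fold change was -0.26 (SE 0.102, DESeq2 adjusted p 0.0397). The call was lost without lectin 3, 4, 6 or 8 or control 2, 3, 6, 7 or 8, with DESeq2 adjusted p of 0.0574 to 0.101, and edgeR gave 0.0632.

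**Figure D2:**
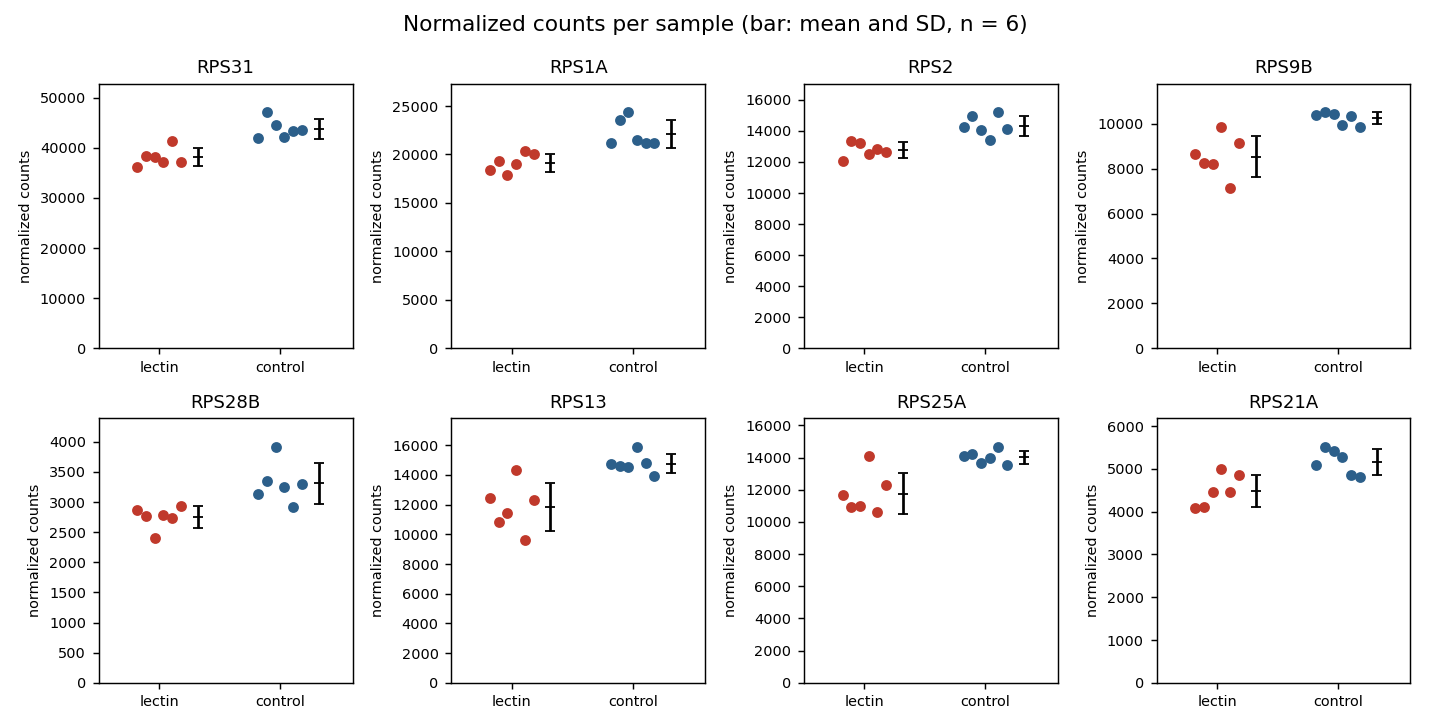
Normalized counts (y axis, from 0) per lectin and control sample for 8 RPS genes, with a bar for the mean and SD of 6 samples. All lectin points of RPS31, RPS1A, RPS2 and RPS9B lie below the control points, while 1 lectin point of RPS28B, RPS13 and RPS25A and 2 of RPS21A reach the controls.

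Other called genes were lower by less. They included RPS16A at -0.18, RPS19A at -0.16, RPS7A at -0.15, RPS24A at -0.14 and RPS1B at -0.11. RPS6B and RPS18A stood at -0.12 and RPS26B at -0.11. The groups overlapped for each of these.

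By kind of gene, the counts are a description without a test and stand beside 16.1% of all features lower and 15.4% higher. All 8 single genes had a negative fold change, with a median of -0.18 and 6, or 75%, called lower. Of the 24 A copies, 12 were lower, 50%, and 1 higher, with a median of -0.12. Of the 24 B copies, 7 were lower, 29.2%, with a median of -0.07. The 20 genes with no intron all had negative values, with a median of -0.16 and 13, or 65%, called lower. Of the 36 genes with an intron, 12 were lower, 33.3%, and 1 higher, with a median of -0.09, and all 10 positive values were among them. Head protein genes had 12 of 22 lower, 54.5%, and a median of -0.15. Body and platform genes had 13 of 34 lower, 38.2%, 1 higher and a median of -0.11.

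Levels per length differed far more between RPS genes than between the groups. On the scale of normalized counts per kilobase of coding length, control means ran between 3956 for RPS9A and 95371 for RPS31, a 24.1-fold range. The lectin means of these 2 genes were 4367 and 83036. The next levels in control samples were 51700 for RPS20 and 45307 for RPS10A, and the next above RPS9A was 8808 for RPS29A. RPS20 and RPS10A had lectin means of 45807 ± 2678 and 46795 ± 3513, so their order among lectin samples was within the SD.

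The 2 copies of a pair were then set against each other, since a call for one copy and none for the other is no test of a difference. The test was the interaction of copy and treatment in edgeR's quasi-likelihood model with each sample as its own block, over all 61 A and B pairs of the table, so that depth and scaling cancel. The A to B ratio differed between lectin and control samples for 11 of the 24 RPS pairs at an adjusted p under 0.05. Among all 61 pairs, which include these, it differed for 24, 39.3%, and among the 37 other pairs for 13. Copy A was lower relative to copy B with the lectin in 8 of the 11, RPS1, RPS4, RPS14, RPS16, RPS21, RPS22, RPS24 and RPS25. It was higher in 3, RPS9 and RPS23 among them. For 7 of the 24 RPS pairs the ratios of the groups did not overlap, against 14 of all 61 pairs, 23.0%. Both counts of RPS pairs were near the shares over all pairs.

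RPS9 and RPS4 had the smallest adjusted p, 1.01e-05 for each in edgeR's quasi-likelihood test. Copy A of RPS9 made up 23.7%, 22.1%, 22.5%, 23.4%, 22.9% and 23.7% of the counts per coding length of the pair in lectin samples 2, 3, 4, 5, 6 and 8. It made up 17.2%, 18.3%, 18.5%, 18.3% and 18.6% in control samples 2, 3, 4, 7 and 8, and its share was highest among the controls in control 6. Every lectin sample stood above every control sample. The A to B ratio of RPS9 rose by 0.41 on the log2 scale, with a 95% interval of 0.31 to 0.50. This interval, like those of the other pair ratios, comes from limma's linear model of the log2 ratio and not from edgeR. RPS9B was lower, while RPS9A had 2594 ± 344 normalized counts in lectin samples and 2350 ± 116 in control samples (SD, n = 6 each), a log2 fold change of 0.14 that did not pass the test (DESeq2 adjusted p 0.144). Over the left-out samples this value of RPS9A was 0.09 without lectin 5 to 0.19 without lectin 6. RPS9A was called higher without lectin 6 and with length and GC offsets, with DESeq2 adjusted p of 0.0218 and 0.0336.

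Both RPS9 genes carry an intron, and the coding sequences are 90.9% identical. The promoter windows of the pair are shown because its A to B ratio had the largest change among the RPS pairs. Each runs over 200 bases, from 300 to 101 bases before the start codon, on the plus strand of R64 (RefSeq), at chrXVI:404650-404849 for RPS9A and chrII:604208-604407 for RPS9B. Capitals mark GACGC, the letters found near Fhl1 sites.
RPS9A: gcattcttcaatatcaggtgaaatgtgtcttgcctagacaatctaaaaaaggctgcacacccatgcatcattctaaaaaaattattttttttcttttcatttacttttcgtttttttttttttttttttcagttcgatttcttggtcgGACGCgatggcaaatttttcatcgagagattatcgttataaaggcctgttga
RPS9B: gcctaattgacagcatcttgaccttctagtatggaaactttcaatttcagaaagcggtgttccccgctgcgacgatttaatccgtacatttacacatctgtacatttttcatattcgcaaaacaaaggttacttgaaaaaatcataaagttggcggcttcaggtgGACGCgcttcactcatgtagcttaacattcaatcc
Each window holds GACGC once, and neither holds the core of the Rap1 motif. Searched on both strands of the 500 bases before the start codon, GACGC was present for 27 of the 56 RPS genes, 48.2%, against 30.3% of 6027 protein-coding genes. This form of the Rap1 core, a match to 8 fixed letters of its 10, was present for 11, 19.6%, against 2.22%. Other forms of the Rap1 motif were not searched, so a gene without this match can still carry one. A run of 8 T, written TTTTTTTT, was present for 21, 37.5%, against 44.3%. These are matches of letters and not sites of binding.

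RPS4, a body protein, showed a shift in the other direction. Copy A of RPS4 made up 50.6%, 50.6%, 50.9%, 50.7%, 49.6% and 51.9% of the counts of the pair in lectin samples 2, 3, 4, 5, 6 and 8. It made up 54.2%, 54.9%, 54.2%, 53.5%, 53.7% and 53.6% in control samples 2, 3, 4, 6, 7 and 8. Every lectin sample stood below every control sample, and the A to B ratio fell by 0.19 on the log2 scale, with a 95% interval of -0.25 to -0.13. Neither copy passed the test alone, although RPS4A was called lower without control 4 (DESeq2 adjusted p 0.00528). RPS4A had 18013 ± 825 normalized counts in lectin samples and 19264 ± 1541 in control samples, and RPS4B 17505 ± 968 in lectin samples and 16422 ± 1465 in control samples (SD, n = 6 each). The coding sequences are 98.1% identical and encode the same protein, and 13.5% of the stretches of 100 bases occur in both copies, so reads of these stretches cannot be told apart by sequence. The stretch with the most differences, bases 181 to 270 of the coding sequence counted from the start codon (R64, RefSeq), shows what separates the reads, with capitals where the copies differ. RPS4A lies on chromosome X and RPS4B on chromosome VIII, both on the minus strand, and each has 1 intron.
RPS4A: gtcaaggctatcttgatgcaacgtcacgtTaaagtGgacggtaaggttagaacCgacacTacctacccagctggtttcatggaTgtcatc
RPS4B: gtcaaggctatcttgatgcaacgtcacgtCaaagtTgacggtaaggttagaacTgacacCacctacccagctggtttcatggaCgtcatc

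In RPS14, RPS22 and RPS23 the A share also separated the groups. For RPS14 it was 69.0% ± 1.95 in lectin samples and 74.2% ± 1.41 in control samples (SD, n = 6 each), and the ratio fell by 0.37 on the log2 scale (95% interval -0.51 to -0.23, edgeR adjusted p 3.01e-04). RPS14B, a gene known to be shut off at splicing by its own protein, had 5434 ± 568 normalized counts in lectin samples and 5070 ± 161 in control samples and did not pass the test. RPS14B was called higher without lectin 6, with a DESeq2 adjusted p of 0.0196. For RPS22, a body protein, the A share was 67.7% ± 0.521 in lectin samples and 71.0% ± 0.811 in control samples, and the ratio fell by 0.23 (95% interval -0.30 to -0.16, edgeR adjusted p 2.07e-04). RPS22A stood at -0.12 and RPS22B at 0.10 on the log2 scale, and neither passed the test. RPS22B was called higher without lectin 2 (DESeq2 adjusted p 0.0288) and with the replicate block plus length and GC offsets (DESeq2 adjusted p 0.0258). RPS22B holds the small nucleolar RNA SNR44 in an intron on the same strand. For RPS23, the protein beside the decoding centre, the A share was 51.1% ± 0.670 in lectin samples and 49.0% ± 0.449 in control samples, and the ratio rose by 0.12 (95% interval 0.06 to 0.18, edgeR adjusted p 7.66e-04). By counts per length, copy A of RPS23 thus had slightly the larger share in lectin samples and copy B in control samples. The coding sequences are 96.6% identical, and 16.5% of the stretches of 50 bases occur more than once in the genome. Which copy is the larger is therefore uncertain.

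Further called ratios were RPS25 at -0.24, RPS21 at -0.23, RPS16 at -0.11, RPS1 at -0.10 and RPS24 at -0.08 on the log2 scale. The A share of RPS25 was 73.4% ± 1.48 in lectin samples and 76.6% ± 1.06 in control samples (SD, n = 6 each), without overlap, while the groups overlapped for RPS1, RPS16, RPS21 and RPS24. The calls for RPS1, RPS16 and RPS24 depended on single samples. RPS1 lost its call without lectin 3, 4, 5 or 8 or control 4, 6 or 8, with edgeR adjusted p of 0.0641 to 0.0992. RPS24 lost it without lectin 3, 4, 6 or 8 or control 2, 3, 4 or 7, at 0.0619 to 0.0907, and RPS16 without lectin 3 or 4 or control 3 or 4, at 0.0526 to 0.0650. The ratio of RPS1 was not called by limma or the exact permutation test, with adjusted p of 0.0830 and 0.0685. In RPS24, 17.3% of the stretches of 100 bases occur in both copies, so the split of its counts is uncertain.

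**Figure D3:**
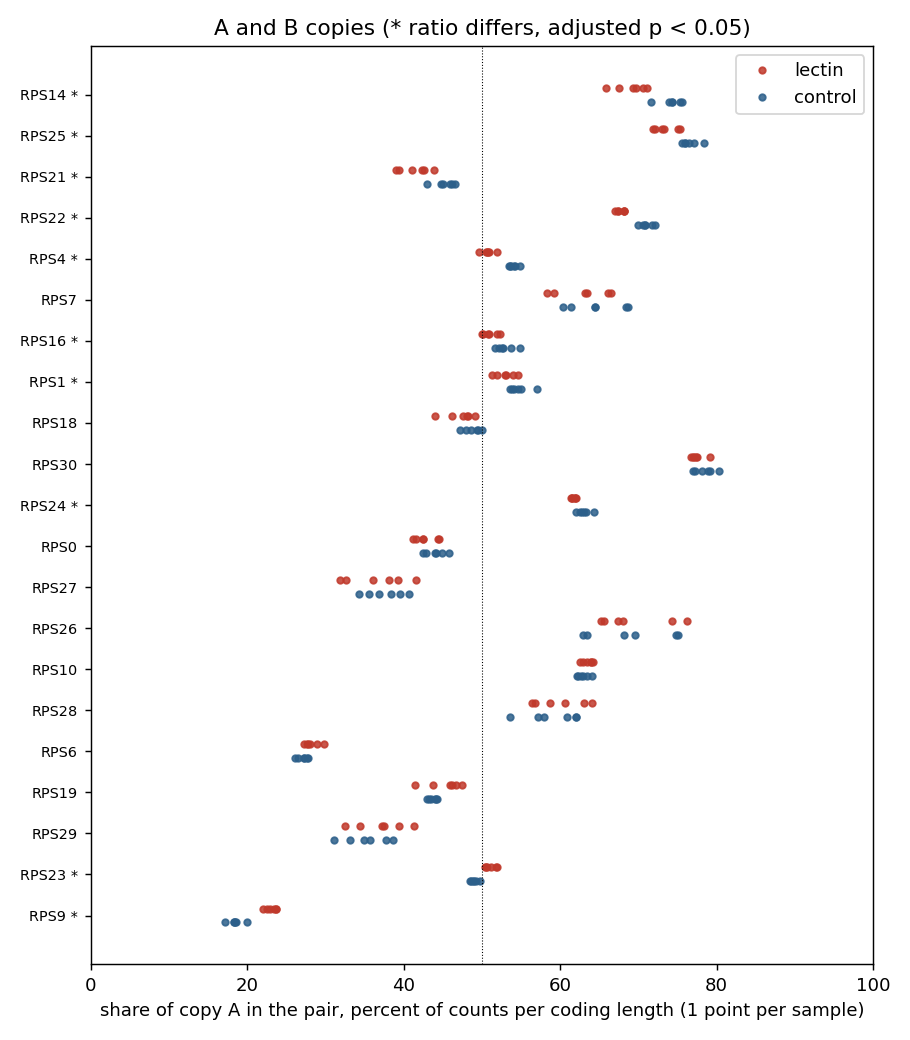
Share of copy A in the counts per coding length of 21 RPS pairs (x axis, percent), with 1 point per sample and lectin above control for each pair. The asterisks mark the 10 of these pairs whose ratio differs, and the points of RPS4, RPS9, RPS14, RPS22, RPS23 and RPS25 do not overlap between the groups.

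For 13 pairs the ratio did not pass the test, and for some the interval was wide. The change of the A to B ratio was 0.03 for RPS26, with a 95% interval of -0.35 to 0.41. For RPS10 the interval was narrow, -0.03 to 0.10. In RPS6, 54.0% of the stretches of 100 bases occur in both copies, so the split of its counts between A and B is uncertain. The handling of reads that match both copies was not given in the sources used here. In 5 pairs, among them RPS6, RPS7, RPS18 and RPS26, only one copy was called lower and the ratio was not called. The 2 proteins of a pair are identical for 9 of the 24 pairs.

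Summed over copies, the messages of 30 of the 32 proteins had a lower mean with the lectin. The median log2 difference of the sums was -0.14. RPS28, RPS31, RPS2 and RPS1 did not overlap between the groups. For RPS28 the sum of both copies was 6882 ± 490 normalized counts in lectin samples and 8055 ± 399 in control samples, and for RPS1 36131 ± 1415 in lectin samples and 40471 ± 2107 in control samples (SD, n = 6 each). The sums of RPS4 and RPS23 differed by 0.02 or less on the log2 scale, although their A to B ratios differed. RPS10 and RPS27 had slightly higher means with the lectin, by 0.03 and 0.01.

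Some RPS genes varied between samples of the same group more than between the groups. RPS0A, which encodes a protein at the back of the body, had 8670, 6679, 6261, 10676, 6475 and 7077 normalized counts in lectin samples 2, 3, 4, 5, 6 and 8. It had 8653, 7499, 7320, 10440, 10436 and 8216 in control samples 2, 3, 4, 6, 7 and 8. Lectin 2 and 5 and control 6 and 7 were the highest of their groups. After the values were seen, 9 of the 56 RPS genes were found with these same 4 samples on top, including RPS0A, RPS0B, RPS7B, RPS13, RPS14A, RPS15 and RPS26A. That is 16.1%, against 3.9% of all features. The highest lectin sample was 1.97 times the lowest for RPS15 and 1.77 times for RPS26A, and the highest control sample of RPS26A was 1.78 times the lowest.

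As a description over the 12 samples, deviations from the group means on the log2 scale correlated with those of RPS0A at r = 0.986 for RPS0B, 0.980 for RPS26A, 0.965 for RPS7B and 0.933 for RPS15. These genes were picked for having the same samples on top, which favours a high r. RPS13 and RPS14A, with the same samples on top, stood at 0.760 and 0.759. Other RPS genes had negative values, down to -0.705 for RPS6B and -0.709 for RPS6A. The genes most like RPS0A in the whole table were TAF14 at 0.992 and CTH1 at 0.991. The points share the library and its scaling. Without lectin 5, RPS0A, RPS0B and RPS15 were called lower, at -0.32, -0.22 and -0.36 on the log2 scale, with DESeq2 adjusted p of 0.0407, 0.0125 and 0.0228. Lectin 5 also had the highest total count, and the part of depth in this was not tested.

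**Figure D4:**
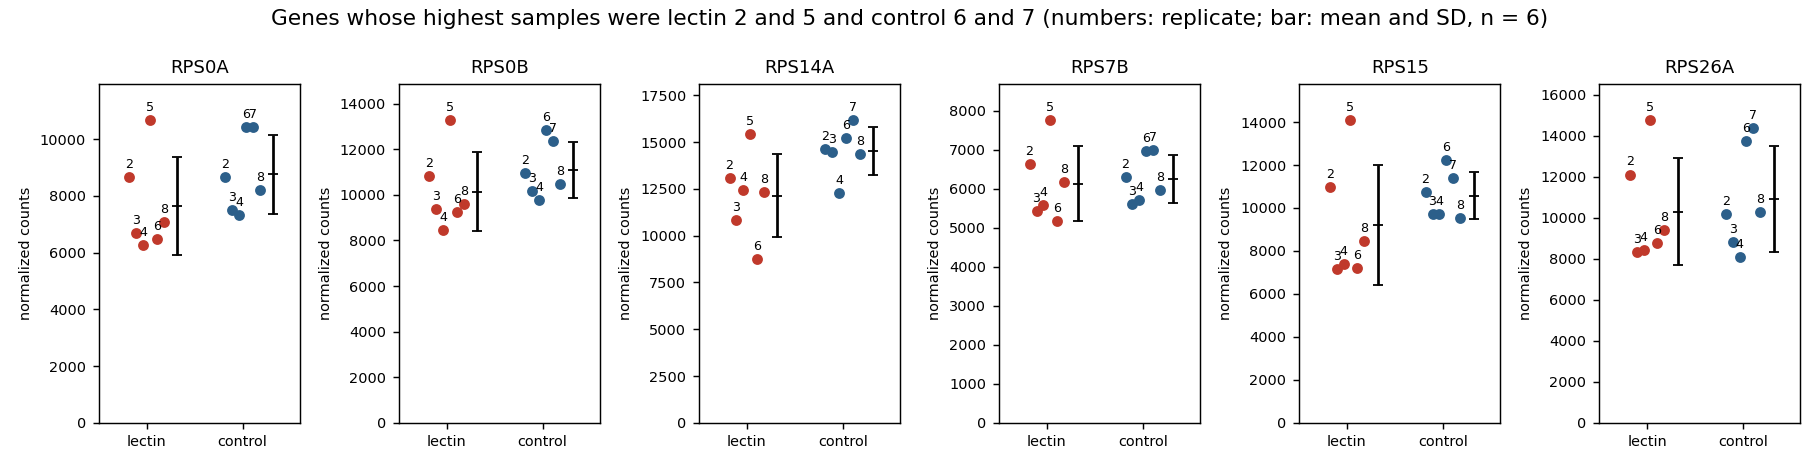
Normalized counts (y axis, from 0) of 6 RPS genes in the lectin and control samples, each point labelled with its replicate number and a bar for the mean and SD of 6 samples. Lectin 2 and 5 and control 6 and 7 are the highest points of their groups in all 6 genes.

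The large subunit genes gave similar counts to the small subunit genes, 36 lower and 2 higher of 81, with a median of -0.14. That is 44.4% lower, against 16.1% of all features. The largest falls among them were RPL12B at -0.41, RPL12A at -0.34, RPP2B at -0.34, RPL19B at -0.33 and RPL13B at -0.32. ASC1, which encodes the scaffold protein on the head of the small subunit, stood at 0.02 and did not pass the test (DESeq2 adjusted p 0.737). Of 50 assembly factors of the small subunit, 7 were lower and 9 higher, with a median of 0.02. The 32% called was close to the 31.5% of all features. Of 6 escort and chaperone genes for single RPS proteins 1 was called, YAR1, at 0.12. Of 3 associated protein genes 1 was called, STM1, at -0.10. edgeR called neither, with adjusted p of 0.0525 for YAR1 and 0.0680 for STM1. Of 4 ubiquitin ligases that act on small subunit proteins 1 was called, HEL2, which marks proteins of stalled ribosomes. HEL2 rose by 0.29 (SE 0.0571, DESeq2 adjusted p 4.14e-06), with every lectin sample above every control sample. These lists have too few genes for their shares to be read against all features.

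Of 20 regulators of ribosomal protein genes, 2 were lower and 4 higher, and the 30% called was close to the 31.5% of all features. IFH1, the coactivator recruited by Fhl1, had 4694 ± 185 normalized counts in lectin samples and 3664 ± 176 in control samples (SD, n = 6 each). It rose by 0.36 on the log2 scale (SE 0.0426, DESeq2 adjusted p 3.29e-15), with every lectin sample above every control sample. FHL1 rose by 0.24 (DESeq2 adjusted p 0.0109), as did TOD6, a repressor of ribosome biogenesis genes, with an adjusted p of 4.42e-05, and TPK3, a catalytic subunit of protein kinase A, rose by 0.17. HMO1, for a protein bound at many ribosomal protein promoters, had 1737 ± 190 normalized counts in lectin samples and 2139 ± 65.4 in control samples (SD, n = 6 each). HMO1 fell by 0.30 (SE 0.0638, DESeq2 adjusted p 3.11e-05), and RPD3, a histone deacetylase, fell by 0.14. The groups overlapped for HMO1, RPD3, FHL1 and TPK3, and did not for TOD6. SFP1 at 0.10 and RAP1 at -0.08 did not pass the test, with DESeq2 adjusted p of 0.236 and 0.177.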

How the data were processed

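Poly-A RNA was sequenced as paired-end Illumina libraries, described as strand-specific per the labels' protocols. The authors deposited raw read counts per gene, and the submitters' processing notes name fastp, HISAT2, featureCounts and the build R64, without versions. The strand setting and the treatment of reads that match several genes or overlapping genes were not given in the sources used here. Either can lower or misplace counts of near-identical copies. Every one of the 12 sample columns was used, and all were mapped by name.

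Gene names, coordinates, introns and sequences came from RefSeq R64, which matched 6047 of the 7192 identifiers. Features were kept where 6 or more samples had 10 or more counts. They were tested by DESeq2's Wald test, lectin against control, in version 1.42.0 under R 4.3.3, with its default size factors (median of ratios) and p-values adjusted by Benjamini-Hochberg. DESeq2 was the main test because the series' design text names it. Log2 fold changes are unshrunken, and normalized counts are counts divided by size factors. Pair ratios were tested with edgeR 4.0.16 over 61 pairs. Alternatives were edgeR with TMM scaling, limma-voom (limma 3.58.1), other scalings and filters, length and GC offsets, a replicate block, leaving out each sample and, for pairs, limma, an exact permutation test and DESeq2. The main steps were tested on simulated data. Sequences were aligned with Biopython 1.88.

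No 2 samples of a group were alike within counting noise: chi-square over its degrees of freedom was 6.75 to 59.3. The members, gene lists and tests were chosen with earlier results of these data known. The assignment of proteins to head or body was made after values were seen, from textbook knowledge. Sample values were given for the 10 called RPS genes with the largest fold change, any called higher and the 6 pairs with the smallest adjusted p, and a fold change for the single and remaining called RPS genes and for genes of other lists past 0.3 on the log2 scale, at most 5 per list, with ASC1, IFH1, FHL1, SFP1 and RAP1 always. Some RPS genes are not reported by name here, and counts over the 56 genes include them. HMO1, TOD6, TPK3, RPD3, HEL2, YAR1, STM1, UBI4, RPL40A, RPL40B, RPS0A, TAF14, CTH1 and the genes beside RPS0A were added after their values were seen.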

Additional observations from a re-analysis of the deposited data

Results flagged for a closer look

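Within a group of 6 samples, 58 sets of values were checked, from single genes, A shares of pairs, the RPS share of counts and total counts. In 1 set a sample stood apart from the rest past Dixon's critical value at 95%, where chance alone gives about 2.9. RPS28B had 2403 normalized counts in lectin 4, while the other lectin samples had 2741 to 2929. The call of RPS28B as lower held without lectin 4.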

How the results depend on the processing

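The count of 25 lower RPS genes was 21 to 26 under the other tests, scalings, filters, offsets and the replicate block, and 18 to 34 when each sample was left out. The median RPS log2 fold change stayed negative, between -0.14 and -0.11. The count of higher RPS genes, 1, was 0 with edgeR, limma-voom, TMM scaling, size factors without ribosomal protein genes, and no filter, 2 with length and GC offsets with or without the replicate block, and 0 to 2 when each sample was left out. The cause was not tested. The difference in share of counts was -0.320 to -0.249 percentage points when each sample was left out. All called features numbered 1646 to 2418, lower large subunit genes 28 to 41, called assembly factors 14 to 23 and called regulators 5 to 9 over those samples.

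For the pairs, 8 to 12 ratios were called over the left-out samples, 10 by limma, 10 by the exact permutation test and 12 by DESeq2. Of 80 values of the 5 pairs RPS4, RPS9, RPS14, RPS22 and RPS23, all 80 kept direction and side of the threshold. Of 506 values of the copies of these pairs, the single genes and the genes with the largest changes, 22 in all, 485 did so, 12 lost and 9 gained the call, and 0 changed direction.

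The numbers 2, 3, 4, 6 and 8 occur in both groups. Deviations of same-numbered samples correlated at -0.122 to 0.186, and 1 of the 5 lectin samples correlated best with its own number. The labels do not say whether a shared number pairs cultures, and correlations of 5 such pairs cannot decide it. With the replicate block on 10 samples, 26 RPS genes were lower and 1 higher, against 32 lower on the same samples without it, and 9 pair ratios were called. Depth limits little here, since the lowest mean among the 56 genes was 1486 normalized counts, and the spread between samples sets the precision.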
